A study of Mus musculus with 6 samples.

Results

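The Rab GTPases examined here were all genes whose symbol is Rab followed by a number and at most 1 letter, without the Rab-binding partners that carry a longer name. The RefSeq gene table of mouse assembly GRCm38.p6 held 59 such genes, and the accessions of the array's probes named 80 probes for 57 of them. A gene was tested if at least 1 of its probes was well above background, by the scanner software's own flag, on both independent arrays of at least 1 group. This left 44 Rab genes of 10944 tested genes, of which 42 were well above background on all 4 arrays. Of the other members, 13 had no probe past this filter and 2, Rab36 and Rab44, had no named probe and were not analysed here.

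Rab proteins are small GTPases that sit on membranes and give each compartment its identity. In the GTP-bound state a Rab protein recruits effectors such as tethers, motors and kinases, and it is switched on by exchange factors and off by GTPase-activating proteins. In macrophages, Rab proteins of early and late endosomes act in turn on a phagosome as it matures, and others carry receptors and cytokines to the cell surface.

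The cells were macrophages grown from bone marrow of C57BL/6 mice aged 6 to 8 weeks, which the labels call polarized M2 (alternatively activated) cells without naming the polarizing agent. The treated cells were kept for 6 h in complete DMEM with WGP, whole glucan particles of yeast cell wall rich in beta-glucan, and the control cells for 6 h in complete DMEM alone. Each group had 3 deposited files of 1-colour (Cy3) Agilent arrays, but the files of replicate 3 repeated the spot signals of replicate 1 at all 44397 spots, so that n = 2 arrays per group are independent. The labels do not say that replicates came from separate cultures or animals, so a p-value here reflects no more than the spread of these arrays, which may be technical.

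A level is the log2 of the processed signal minus the 75th percentile of its array, which was 57.4 and 54.7 on the WGP arrays and 84.0 and 67.0 on the medium arrays, and a change is the WGP mean minus the medium mean. Levels of different genes come from different probes and are not set against each other. All 10 macrophage markers with a named probe, among them Csf1r, Adgre1 and Itgam, were well above background on every array. Of 10 markers of alternative activation, Mrc1, Clec10a, Egr2 and Tgm2 exceeded background on all arrays and Chil3 on 3, while Arg1, Retnla, Irf4, Ccl22 and Ccl17 did so on none. The members of that list ran in different directions: Tgm2 had levels of 5.52 and 5.56 with WGP, against 1.93 and 1.72 in medium, while Clec10a had -0.059 and -0.32 with WGP, against 4.01 and 3.66 in medium, and Mrc1 2.44 and 2.42 with WGP, against 3.14 and 2.98 in medium. The summed signal of the list, in multiples of the 75th percentile, was 59.1 on both WGP arrays and 25.3 to 30.1 on the medium arrays, and Tgm2 made up most of it with WGP. That of 5 dendritic cell markers was 209 to 220 with WGP and 82.4 to 124 in medium (3 of 5 above background on all arrays, Flt3 and Xcr1 on none), nearly all of it from the single gene Siglech (levels of 7.70 and 7.78 with WGP, against 6.94 and 6.35 in medium). That of 4 B cell markers was 0.276 to 0.286 with WGP and 0.754 to 0.952 in medium (0 of 4 above background on both WGP arrays, 2 of 4 on both medium arrays). The sums of other lists overlapped between the groups: neutrophil markers had 20.2 to 20.7 with WGP and 19.5 to 24.2 in medium. T and NK cell markers had 12.5 to 18.4 with WGP and 14.5 to 15.7 in medium, and fibroblast markers 11.7 to 12.3 and 10.6 to 15.2. The neutrophil sum came mostly from Elane, the T and NK cell sum from Cd3e and the fibroblast sum from Col1a2. Cd3d, Cd3g and Ncr1 exceeded background on no array. Erythroid markers, mostly Hba-a1, did not overlap, at 0.200 to 0.208 with WGP and 0.303 to 0.316 in medium. Mast cell markers did not exceed background. The macrophage markers also ran in different directions: their sum, 2180 to 2501 with WGP and 1980 to 1994 in medium, came mostly from Csf1r and Trem2, while Mertk had levels of -1.14 and -1.11 with WGP, against 0.70 and 0.82 in medium, and Fcgr1 3.55 and 3.51 with WGP, against 4.85 and 4.59 in medium. The part of these shifts in the Rab results was not tested. In such bulk samples, fewer cells of a type and less RNA per cell cannot be told apart.

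The comparison asked how 6 h with WGP changed the transcripts of these GTPases. Rab genes moved in both directions: 12 of 44 were higher and 10 were lower with WGP at an adjusted p under 0.05 in limma with Benjamini-Hochberg adjustment over all tested genes, and 22 did not pass. Rab32, Rab20, Rab10 and Rab12 rose by at least 2-fold, while Rab19, Rab6b, Rab29 and Rab37 fell by at least 2-fold. These sizes depended on the background correction. With normexp the log2 changes of Rab20, Rab10, Rab12, Rab6b and Rab37 were 0.61, 0.98, 0.79, -0.85 and -0.24, each below 2-fold. Those of Rab32, Rab19 and Rab29 were 1.43, -2.11 and -1.14. Across all tested genes 23.6% were called higher and 17.1% lower (40.7% in either direction), against 27.3% and 22.7% of the Rab genes, and the difference between these shares was not tested. The median change of the Rab genes was -0.0091 on the log2 scale, beside 0.036 for all tested genes, and their median absolute change was 0.41, beside 0.41 for all. The arrays of the groups did not overlap for 35 of 44 Rab genes (79.5%), beside 75.1% of all tested genes.

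Per the file headers, replicates 1 and 2 were hybridised on a slide each, with 1 WGP and 1 medium array on each slide. A fit that blocked on slide called 8 Rab genes higher and 9 lower. The change had the same sign on both slides for 38 of the 44 genes. Left without WGP replicate 1, WGP replicate 2, medium replicate 1 or medium replicate 2, the fit called 4, 5, 8 or 7 Rab genes higher and 6, 5, 8 or 7 lower, where the lone array of a group is assumed to vary like the other group. Scaling to the array median called 13 higher and 6 lower, quantile normalization 8 and 11, and a fit with no filter on dim probes 3 and 3. The calls of Rab32, Rab20, Rab10, Rab19, Rab6b and Rab29 were present in all 14 other settings, which reuse the same arrays.

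**Figure D1:**
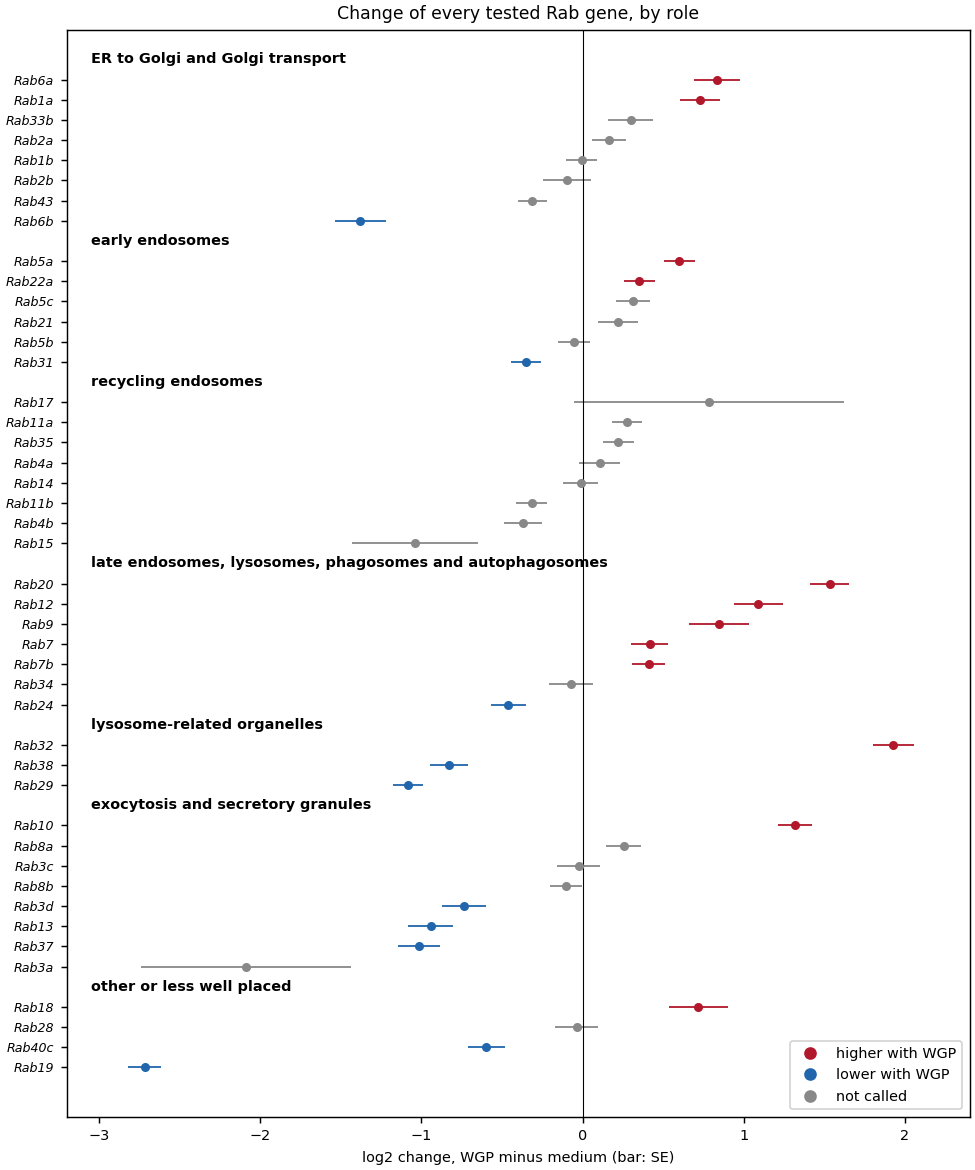
Change of each of the 44 tested Rab genes (log2, WGP minus medium, x axis) by role, with bars for the SE of the fit; red genes were called higher, blue genes lower and grey genes were not called at an adjusted p of 0.05. The changes run from -2.72 for Rab19 to 1.93 for Rab32, and no gene of the recycling endosome group is coloured.

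Among the Rab genes of early endosomes, the compartment that receives newly taken up cargo, 2 of 6 rose, 1 fell and 3 did not pass. Of all tested genes, 23.6% were called higher and 17.1% lower, and the counts of the small role groups were not tested against these shares. Rab5a, which drives fusion of early endosomes and of new phagosomes with them, had levels of 1.34 and 1.25 with WGP, against 0.67 and 0.72 in medium. Both WGP arrays lay above both medium arrays, which is 1.52-fold higher (log2 change 0.60 ± 0.098, SE, adjusted p = 0.0144). A second kept probe of Rab5a had a change of 0.44. Rab22a, an early endosomal Rab of the Rab5 branch, was higher by 0.35 ± 0.094 (SE, adjusted p = 0.0473), whereas its close relative Rab31, also known as Rab22b, was lower, with a change of -0.35 ± 0.094 (SE, adjusted p = 0.0478). The calls of Rab22a and Rab31 were at the threshold: their adjusted p was 0.0809 and 0.0782 with the slide as a block, 0.0941 and 0.0541 with quantile normalization and 0.133 and 0.0636 with normexp, and that of Rab31 was 0.341 with median scaling. Without WGP replicate 1, WGP replicate 2, medium replicate 1 or medium replicate 2 the adjusted p was 0.176, 0.200, 0.0845 or 0.129 for Rab22a and 0.200, 0.178, 0.0853 or 0.130 for Rab31. That of Rab5a was 0.0861, 0.0654 or 0.0507 without WGP replicate 1, WGP replicate 2 or medium replicate 1, and its change was 0.19 with normexp background correction (adjusted p = 0.104). The other Rab5 isoforms did not pass: Rab5c had a change of 0.31 ± 0.10 (SE, adjusted p = 0.0798) and Rab5b of -0.053 ± 0.097 (SE, adjusted p = 0.687), with 1 of the other 3 kept probes of Rab5b at 0.64. Rab21, which acts on integrin traffic, had a change of 0.22 ± 0.12 (SE, adjusted p = 0.223).

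The promoter window of Rab5a is shown because, among the 60 Rab promoter windows searched, it held the most kinds of motif. Windows run from 250 bases before to 50 bases from the annotated start (RefSeq, GRCm38.p6), read 5′ to 3′ on the gene's strand, and this one is chr17:53478984-53479283 on the plus strand. Capitals mark the letters searched, here CACGTG (the E-box bound by many basic helix-loop-helix factors), its longer form TCACGTGA, and TGACGTCA (the full cyclic AMP response element), which begin 235, 96 and 28 bases before the start. Such a match is a description of the sequence and not a measured site.
Rab5a: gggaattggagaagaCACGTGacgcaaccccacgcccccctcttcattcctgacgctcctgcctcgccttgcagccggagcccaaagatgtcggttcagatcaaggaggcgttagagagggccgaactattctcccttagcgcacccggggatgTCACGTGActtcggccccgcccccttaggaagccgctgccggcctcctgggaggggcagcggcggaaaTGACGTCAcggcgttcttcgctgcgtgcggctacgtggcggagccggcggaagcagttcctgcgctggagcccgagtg

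The Rab genes of late endosomes, lysosomes, phagosomes and autophagosomes included 5 of 7 that rose, 1 that fell and 1 that did not pass, with a median change of 0.42, beside 23.6% called higher and 17.1% called lower of all tested genes. Of the 5, Rab7 and Rab7b lost their call with the slide as a block. Rab20, an endosomal and phagosomal Rab of macrophages, had levels of -0.0099 and -0.035 with WGP, against -1.44 and -1.67 in medium. The WGP arrays lay close together and far above the medium arrays, a 2.89-fold rise (1.53 ± 0.12, SE, adjusted p = 0.00331), which was 1.43 on slide 1 and 1.63 on slide 2. Its change was 0.61 with normexp background correction (adjusted p = 0.000839). Rab12, which moves transferrin receptor from recycling endosomes to lysosomes, had levels of 4.23 and 3.97 with WGP, against 3.13 and 2.89 in medium, without overlap. This was a 2.13-fold rise (1.09 ± 0.15, SE, adjusted p = 0.0102). With normexp the change of Rab12 was 0.79 (adjusted p = 0.00173), and with no filter on dim probes its adjusted p was 0.0550. Rab9, which returns mannose 6-phosphate receptors from late endosomes to the Golgi, had levels of 2.91 and 2.69 with WGP, against 2.15 and 1.75 in medium. It rose 1.80-fold (0.85 ± 0.18, SE, adjusted p = 0.0290), and its other 2 kept probes had changes of 0.82 and 0.40. The call of Rab9 ended without WGP replicate 1, WGP replicate 2 or medium replicate 2 (adjusted p of 0.111, 0.0691 and 0.0696).

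Rab7, the central Rab of late endosomes and lysosomes, and Rab7b, which acts between endosomes and the Golgi, were higher by smaller amounts. Rab7 had levels of 4.23 and 4.43 with WGP, against 3.92 and 3.91 in medium, a change of 0.42 ± 0.11 (SE, adjusted p = 0.0497). Rab7b had levels of 5.88 and 5.75 with WGP, against 5.41 and 5.40 in medium, a change of 0.41 ± 0.10 (SE, adjusted p = 0.0398). Neither gene's groups overlapped, but with the slide as a block the adjusted p was 0.0684 for Rab7 and 0.0617 for Rab7b. Without WGP replicate 1, WGP replicate 2, medium replicate 1 or medium replicate 2 it was 0.0958, 0.213, 0.122 or 0.133 for Rab7 and 0.191, 0.107, 0.0975 or 0.110 for Rab7b. Quantile normalization gave changes of 0.25 (adjusted p = 0.150) and 0.21 (adjusted p = 0.180), and normexp 0.25 (adjusted p = 0.0697) and 0.19 (adjusted p = 0.130). Rab24, a Rab linked to autophagosomes, was the member of this group that fell, with levels of 0.78 and 0.82 with WGP, against 1.17 and 1.34 in medium (-0.46 ± 0.11, SE, adjusted p = 0.0355). Its change was -0.30 with median scaling (adjusted p = 0.195), and the adjusted p was 0.153, 0.129 or 0.0986 without WGP replicate 1, WGP replicate 2 or medium replicate 2. Rab34, which takes part in phagosome maturation, had a change of -0.074 ± 0.14 (SE, adjusted p = 0.689).

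The windows of Rab20 and Rab24 are shown because they hold a CACGTG, in capitals, in a gene that rose and in a gene that fell. In Rab20 (chr8:11478591-11478890, minus strand) it begins 46 bases before the start, and in Rab24 (chr13:55321931-55322230, minus strand) it lies within a TCACGTGA that begins 1 base after the start.
Rab20: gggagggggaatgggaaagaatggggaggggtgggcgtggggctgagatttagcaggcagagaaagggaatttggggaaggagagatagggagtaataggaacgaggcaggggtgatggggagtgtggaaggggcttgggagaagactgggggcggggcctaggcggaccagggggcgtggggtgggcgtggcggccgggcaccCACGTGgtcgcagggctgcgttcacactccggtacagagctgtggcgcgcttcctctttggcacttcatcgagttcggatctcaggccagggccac
Rab24: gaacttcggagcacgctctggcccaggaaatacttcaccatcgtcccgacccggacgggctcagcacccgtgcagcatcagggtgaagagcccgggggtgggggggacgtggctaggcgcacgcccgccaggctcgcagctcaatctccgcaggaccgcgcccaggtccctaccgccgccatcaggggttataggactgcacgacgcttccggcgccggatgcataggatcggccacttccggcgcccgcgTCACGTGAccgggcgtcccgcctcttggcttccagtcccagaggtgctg

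Of the Rab genes of lysosome-related organelles, specialised compartments such as melanosomes and platelet granules, 3 were tested. Each was called, 1 higher and 2 lower, beside 40.7% of all tested genes called in either direction. Rab32, which recruits cargo-sorting complexes to such organelles and acts on bacterial vacuoles in macrophages, showed the highest rise of any Rab gene tested. It had levels of 3.10 and 2.99 with WGP, against 1.24 and 1.00 in medium. No WGP array came near a medium array, a 3.80-fold rise (1.93 ± 0.13, SE, adjusted p = 0.00251) of 1.86 on slide 1 and 1.99 on slide 2. Its close paralog Rab38 had levels of -2.45 and -2.38 with WGP, against -1.49 and -1.69 in medium, and fell 1.78-fold (-0.83 ± 0.12, SE, adjusted p = 0.0105). The call of Rab38 ended with normexp background correction (-0.11, adjusted p = 0.338) and without WGP replicate 1 or WGP replicate 2 (adjusted p of 0.0582 and 0.0510). Rab29, the third member of this branch, known for recruiting the kinase LRRK2 to membranes, had levels of 2.85 and 2.78 with WGP, against 3.92 and 3.88 in medium. It fell 2.12-fold (-1.08 ± 0.094, SE, adjusted p = 0.00397), and its other kept probe had a change of -1.21. Lrrk2 itself was not called (change -0.051 ± 0.17, SE, adjusted p = 0.828). Rab27a and Rab27b, which dock secretory granules, did not exceed background on any array.

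The window of Rab32 (chr10:10558158-10558457, minus strand) is shown as that of the member with the highest rise, and it holds none of the letters searched.
Rab32: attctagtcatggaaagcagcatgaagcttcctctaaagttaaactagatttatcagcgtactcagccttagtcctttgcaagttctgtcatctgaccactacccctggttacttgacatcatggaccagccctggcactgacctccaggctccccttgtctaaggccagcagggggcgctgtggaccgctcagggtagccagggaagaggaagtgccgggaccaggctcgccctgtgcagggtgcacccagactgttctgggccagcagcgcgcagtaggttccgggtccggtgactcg

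**Figure D2:**
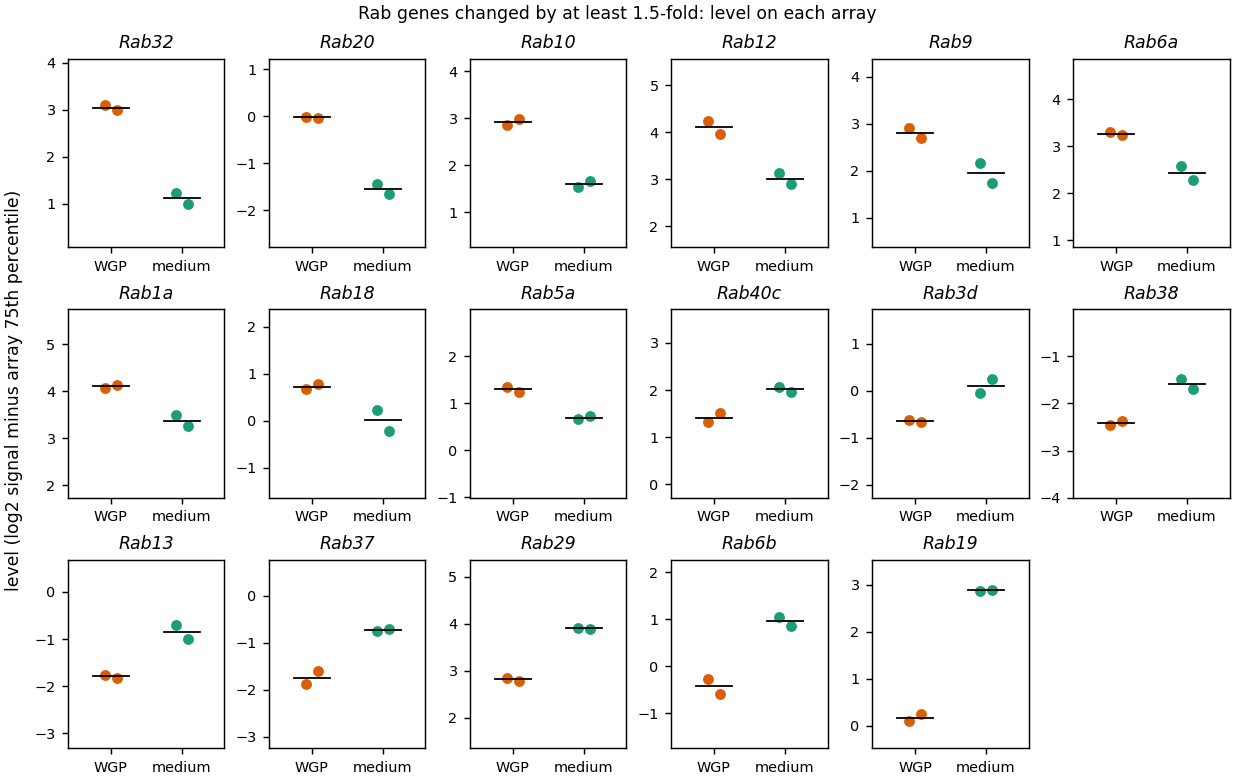
Level on each array (log2 scale, relative to the 75th percentile of the array, y axis) of the 17 Rab genes called with a change of at least 1.5-fold, WGP left and medium right, with a line at the mean of 2 arrays; every panel spans 4 log2 units. In each panel the WGP points lie all above or all below the medium points, from Rab32 (3.10 and 2.99 against 1.24 and 1.00) to Rab19 (0.10 and 0.24 against 2.88 and 2.90). The genes were chosen by their call, so this separation is no separate evidence.

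Recycling endosomes return receptors to the cell surface. Each gene was placed in a single role, so Rab12, Rab8a and Rab8b, which also act on cargo of recycling endosomes, are given elsewhere. None of the 8 tested Rab genes placed with recycling endosomes passed the test, beside 40.7% of all tested genes called in either direction. The 8 genes had a median change of 0.047. In the fit 3 of them had an unadjusted p under 0.05: Rab11a (0.28 ± 0.093, SE, adjusted p = 0.0795), Rab11b (-0.32 ± 0.096, SE, adjusted p = 0.0643) and Rab4b (-0.37 ± 0.12, SE, adjusted p = 0.0725). Rab11a and Rab11b direct slow recycling, and Rab4b acts in fast recycling. Rab11b was called lower under quantile normalization (adjusted p = 0.0276) and also under normexp (adjusted p = 0.00275). Rab4a had a change of 0.11 ± 0.13, Rab14, which also lies on phagosomes, of -0.012 ± 0.11, and Rab35, which acts at the forming phagosome, of 0.22 ± 0.094 (SE each). Both remaining genes had arrays far apart. Rab17 had levels of -0.12 and -2.41 with WGP, against -2.42 and -1.68 in medium, so the change was 2.30 on slide 1 and -0.73 on slide 2 (adjusted p = 0.494, or 0.0437 without WGP replicate 2). Rab15 was well above background on both medium arrays and on neither WGP array, at -3.27 and -4.30 with WGP and -2.93 and -2.57 in medium, which makes it at least 1.46-fold lower on this scale (adjusted p = 0.103, or 0.0287 without WGP replicate 1). With normexp the change of Rab15 was 0.027 (adjusted p = 0.852), so the bound does not hold in that setting. The bound also rests on the kept probe alone. The other Rab15 probe, above background on no array, ran in the opposite direction, at -3.43 and -2.60 with WGP and -4.78 and -4.68 in medium.

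In transport from the endoplasmic reticulum to and through the Golgi, 2 of 8 Rab genes rose, 1 fell and 5 did not pass. Of all tested genes, 40.7% were called in either direction. The changes of these Rab genes split paralogs. Rab6a, which directs transport from and within the Golgi, had levels of 3.31 and 3.23 with WGP, against 2.59 and 2.29 in medium. It rose 1.78-fold (0.83 ± 0.14, SE, adjusted p = 0.0159). Its paralog Rab6b, best known from neurons, had levels of -0.26 and -0.59 with WGP, against 1.04 and 0.86 in medium, and fell 2.60-fold (-1.38 ± 0.16, SE, adjusted p = 0.00675), with a change of -0.85 under normexp (adjusted p = 0.000362). Rab1a, which controls transport into and through the Golgi, had levels of 4.06 and 4.14 with WGP, against 3.49 and 3.26 in medium. The groups were apart by more than the spread of either, a 1.65-fold rise (0.73 ± 0.12, SE, adjusted p = 0.0158) that was 0.48 under normexp (adjusted p = 0.00869). Rab1b had levels of 3.18 and 3.25 with WGP, against 3.21 and 3.23 in medium, overlapping ranges with a change of -0.0064 ± 0.094 (SE, adjusted p = 0.960). The adjusted p without WGP replicate 1 or WGP replicate 2 was 0.0747 and 0.0626 for Rab6a and 0.0665 and 0.0780 for Rab1a. Rab2a, Rab2b, Rab33b and Rab43, all Golgi Rabs, had changes of 0.17, -0.098, 0.30 and -0.31 without passing (adjusted p of 0.266, 0.627, 0.160 and 0.0600). Rab43 was called lower in 6 of the other settings, among them the mean over its 2 kept probes (-0.44, adjusted p = 0.0256).

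Rab genes of exocytosis and secretory granules were called in both directions: 1 of 8 rose, 3 fell and 4 did not pass, with a median change of -0.42. Beside them, 40.7% of all tested genes were called in either direction. Rab10, which delivers the glucose transporter GLUT4 and the receptor TLR4 to the plasma membrane, had levels of 2.85 and 2.97 with WGP, against 1.54 and 1.66 in medium. Both WGP arrays were above both medium arrays by the same amount on each slide, a 2.49-fold rise (1.32 ± 0.11, SE, adjusted p = 0.00348), and its second kept probe had a change of 1.09. Rab37, known from secretory granules of mast cells, had levels of -1.88 and -1.61 with WGP, against -0.75 and -0.72 in medium (2.02-fold lower, adjusted p = 0.00849). Its second kept probe had a change of -1.0, and with normexp background correction its change was -0.24 (adjusted p = 0.0581).

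Rab13, which acts at epithelial junctions, had levels of -1.76 and -1.82 with WGP, against -0.70 and -1.0 in medium, and fell 1.92-fold (-0.94 ± 0.14, SE, adjusted p = 0.0117). Rab3d, a Rab of regulated secretion, had levels of -0.61 and -0.66 with WGP, against -0.049 and 0.25 in medium, and fell 1.66-fold (-0.74 ± 0.14, SE, adjusted p = 0.0203), with -0.89 at its other kept probe. Without WGP replicate 1 or WGP replicate 2 the adjusted p was 0.0518 and 0.0580 for Rab13 and 0.0790 and 0.0871 for Rab3d. Normexp gave changes of -0.23 for Rab13 (adjusted p = 0.0579) and -0.35 for Rab3d (adjusted p = 0.0248). Median scaling gave Rab3d a change of -0.58 (adjusted p = 0.0548). Rab3a, a Rab of synaptic vesicles and other regulated secretion, had levels of -1.67 and 0.18 with WGP, against 1.43 and 1.26 in medium. Both WGP arrays were below both medium arrays but far from each other, and the change of -2.09 ± 0.65 (SE) did not pass (adjusted p = 0.0676). It was called lower without WGP replicate 1 (change -1.16, adjusted p = 0.0299), and likewise when WGP replicate 2 was the array left out (change -3.01, adjusted p = 0.0107), and with normexp (change -1.24, adjusted p = 0.00467). Rab3c had a change of -0.024 ± 0.13, and Rab8a and Rab8b, which carry cargo from the Golgi and recycling endosomes to the surface, of 0.25 ± 0.11 and -0.10 ± 0.099 (SE each, adjusted p of 0.894, 0.137 and 0.454). A dimmer kept probe of Rab8a had the opposite sign (-0.20), and a dimmer probe of Rab8b had a change of -0.96.

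Of the members with other or less settled places, 1 of 4 rose and 2 fell, beside 40.7% of all tested genes called in either direction. Rab19, a little-studied Rab, showed the deepest fall of the called members, with levels of 0.10 and 0.24 with WGP, against 2.88 and 2.90 in medium. The medium arrays lay close together and the WGP arrays far below them, a 6.57-fold fall (-2.72 ± 0.10, SE, adjusted p = 0.00133), which was -2.78 on slide 1 and -2.65 on slide 2. Rab40c, whose protein carries a SOCS box that joins it to a ubiquitin ligase, had levels of 1.32 and 1.51 with WGP, against 2.05 and 1.97 in medium (1.51-fold lower, adjusted p = 0.0223). Rab18, found on lipid droplets and the endoplasmic reticulum, had levels of 0.67 and 0.77 with WGP, against 0.23 and -0.22 in medium (1.64-fold higher, adjusted p = 0.0422). The medium arrays of Rab18 were far apart, and its adjusted p was 0.0524 with the slide as a block and 0.0518 with quantile normalization, while normexp gave a change of 0.47 (adjusted p = 0.00649). Without WGP replicate 1, WGP replicate 2 or medium replicate 2 it was 0.115, 0.142 or 0.0698. For Rab40c the adjusted p was 0.106, 0.0596, 0.0741 or 0.0631 without WGP replicate 1, WGP replicate 2, medium replicate 1 or medium replicate 2, and 0.0870 with median scaling. Rab28, a Rab of ciliated cells, had a change of -0.037 ± 0.13 (SE, adjusted p = 0.840).

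The window of Rab19 (chr6:39381103-39381402, plus strand) is shown as that of the member with the deepest called fall, and like that of Rab32 it holds none of the letters searched.
Rab19: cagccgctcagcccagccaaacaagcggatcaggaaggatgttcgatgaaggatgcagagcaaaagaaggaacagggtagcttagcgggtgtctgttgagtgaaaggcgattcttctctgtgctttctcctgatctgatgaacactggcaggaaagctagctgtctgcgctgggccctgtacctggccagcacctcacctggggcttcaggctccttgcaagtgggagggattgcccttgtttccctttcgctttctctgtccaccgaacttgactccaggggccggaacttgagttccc

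**Figure D3:**
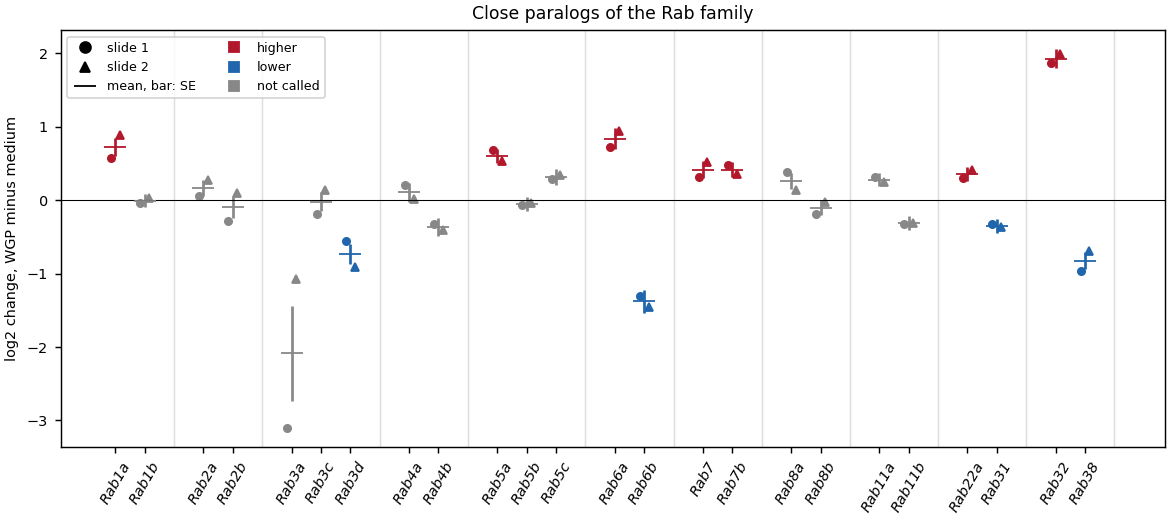
Change (log2, WGP minus medium, y axis) of Rab genes grouped by close paralogs, with a dot for slide 1, a triangle for slide 2, and the mean with its SE; red was called higher, blue lower, grey not called. Rab6a and Rab6b (0.83 and -1.38), Rab22a and Rab31 (0.35 and -0.35) and Rab32 and Rab38 (1.93 and -0.83) lie on opposite sides of 0 on both slides.

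The plot of paralogs sets the closest relatives side by side. Paralogs were called in opposite directions in 3 families: Rab6a and Rab6b, Rab22a and Rab31, and Rab32 and Rab38. No pair kept both calls in all 14 other settings. Rab6a lost its call in 3 of them, Rab22a in 8, Rab31 in 9 and Rab38 in 4, and none reversed direction. Rab1a and Rab5a were called higher while Rab1b, Rab5b and Rab5c were not called, and Rab7 and Rab7b were both called higher. The difference between paralogs was not itself tested. Rab2, Rab4, Rab8 and Rab11 paralogs were not called in either direction.

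**Figure D4:**
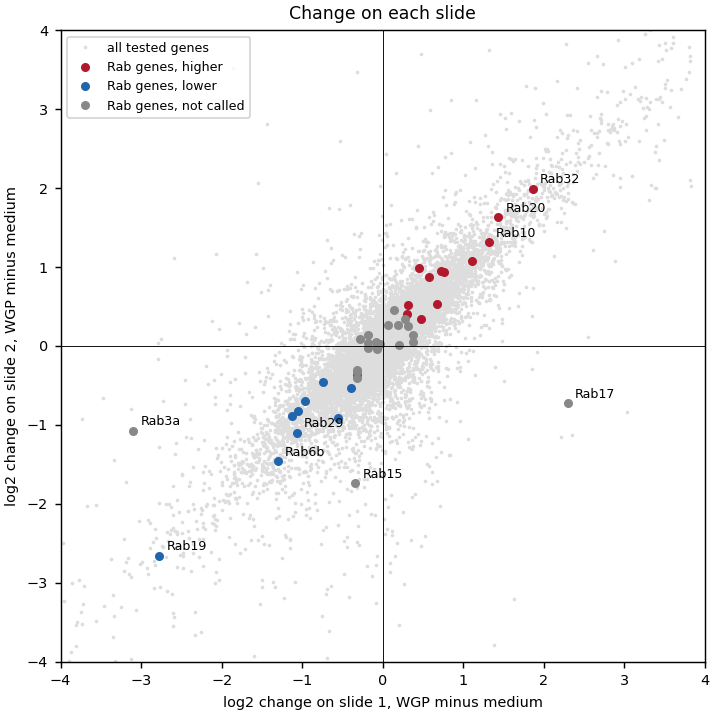
Change on slide 2 (y axis) against change on slide 1 (x axis), log2, WGP minus medium, with 1 array of each group per slide; grey points are all tested genes (61 lie beyond the axes) and coloured points are Rab genes. Called Rab genes lie near the diagonal. A call already needs little spread between the arrays of a group beside the change, so this is no separate evidence. Rab17 (2.30 and -0.73), Rab3a (-3.10 and -1.07) and Rab15 (-0.34 and -1.74), which were not called, lie away from the diagonal.

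The 13 members without a probe past the filter were Rab3b, Rab9b, Rab23, Rab25, Rab26, Rab27a, Rab27b, Rab30, Rab33a, Rab39, Rab39b, Rab40b and Rab42. Of these, 9 did not exceed background on any array. Rab33a was above background on 1 WGP and 1 medium array, and Rab3b, Rab23 and Rab42 on 1 medium array each. Several of them are Rabs of epithelial, neuronal or secretory cells, such as Rab25 and Rab3b. So are some of the tested members, such as Rab6b, Rab3a and Rab13, and the reason for the low signals was not tested. A signal that is not well above background gives a bound on a transcript and does not show that it is absent.

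Partners of Rab proteins changed in both directions, with 23.1% to 45.0% of the genes of each list called, beside 40.7% of all tested genes. Of 13 genes for prenylation, extraction and membrane recycling of Rabs, 2 rose and 1 fell: Yipf4 (0.73 ± 0.18, SE, adjusted p = 0.0382), Yipf5 (0.62 ± 0.092, adjusted p = 0.0118) and Yipf3 (-0.42 ± 0.094, adjusted p = 0.0320). The escort protein gene Chm and the dissociation inhibitor gene Gdi2 did not pass (changes of 0.037 and -0.014). With the slide as a block Yipf3 lost its call (adjusted p = 0.0589), as it did with median scaling (adjusted p = 0.186), and normexp gave 0.33 for Yipf4 and 0.37 for Yipf5. Without WGP replicate 1 or WGP replicate 2 this list had 0 genes called by limma in either direction. Of 40 Rab exchange factors, 8 rose and 4 fell, with a median change of 0.011. This balance depended on the scaling, with 12 higher and 4 lower under median scaling, 6 and 8 under quantile normalization and 7 and 8 under normexp. Dennd2a rose by 1.88 ± 0.23 (SE, adjusted p = 0.0074), and Ric1, a subunit of the exchange factor of Rab6, by 1.49 ± 0.11 (SE, adjusted p = 0.00315). Rgp1, also in this list, did not pass (-0.016 ± 0.26, SE, adjusted p = 0.965). Dennd1c, of the family that acts on Rab35, fell (-1.47 ± 0.14, SE, adjusted p = 0.00455), as did Hps1, a subunit of the exchange factor of Rab32 and Rab38 (-1.17 ± 0.14, SE, adjusted p = 0.00704). Normexp gave smaller changes of 0.80 for Dennd2a, 0.83 for Ric1 and -0.95 for Dennd1c, all still called. Hps1 lost its call with normexp (-0.14, adjusted p = 0.253), and its partner Hps4 did not pass (0.020, adjusted p = 0.896). The number of exchange factors called higher was 3, 3, 5 or 4 without WGP replicate 1, WGP replicate 2, medium replicate 1 or medium replicate 2.

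Of 28 GTPase-activating proteins of Rabs, 3 rose and 4 fell, with a median change of -0.039, and normexp called 2 higher and 7 lower. Tbc1d4, also known as AS160, which acts on Rab10 in GLUT4 traffic, was well above background on both medium arrays (-0.23 and -0.36) and on neither WGP array (-4.19 and -3.59), at least 8.02-fold lower on this scale (adjusted p = 0.00236), but its change was -0.66 with normexp (adjusted p = 0.000747). Tbc1d16 fell (-1.10 ± 0.11, SE, adjusted p = 0.005), and Tbc1d8b (0.97 ± 0.096, SE, adjusted p = 0.00506) and Tbc1d2, which acts on Rab7 (0.90 ± 0.12, SE, adjusted p = 0.00882), rose. Tbc1d8b had a change of 0.40 with normexp (adjusted p = 0.00611). Without WGP replicate 2, 1 of these genes was called higher and 2 lower, and Tbc1d2 had an adjusted p of 0.0507. Of 40 effectors, tethers and Rab-directed kinases, 9 rose and 9 fell, with a median change of 0.091. Rab11fip1, which binds Rab11, rose by 2.17 ± 0.10 (SE, adjusted p = 0.00157), and Micall2, an effector of Rab8 and Rab13, by 1.74 ± 0.13 (SE, adjusted p = 0.0032). Rilpl1, which binds LRRK2-phosphorylated Rabs, rose by 1.74 ± 0.19 (SE, adjusted p = 0.00617), although just 1 of its 2 medium arrays exceeded background, while the monooxygenase gene Mical1 fell (-1.65 ± 0.099, SE, adjusted p = 0.00217). With normexp the changes were 0.83 for Rab11fip1, 1.07 for Micall2 and 0.54 for Rilpl1, all still called. The counts of this list were 4 higher and 4 lower without WGP replicate 1, 4 and 3 without WGP replicate 2, and 5 lower without medium replicate 2, and 4 were lower with median scaling.

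Of 9 genes listed for the HOPS and CORVET tethers, 1 rose and 3 fell, with a median change of -0.25. The list includes Vps33b and Vipas39, which belong to a related complex and were not called. HOPS and CORVET fuse late and early endosomes under Rab7 and Rab5. Vps18, shared by both complexes, rose by 0.61 ± 0.092 (SE, adjusted p = 0.0124). The HOPS subunits Vps41 (-0.55 ± 0.092, SE, adjusted p = 0.0155) and Vps39 (-0.55 ± 0.10, SE, adjusted p = 0.0208) and the shared subunit Vps11 (-0.40 ± 0.10, SE, adjusted p = 0.0417) fell. With the slide as a block Vps11 had an adjusted p of 0.0697, and normexp gave 0.37 for Vps18, -0.34 for Vps41 and -0.27 for Vps39. With median scaling 0 of the 3 falls were called in limma (adjusted p of 0.0802, 0.0828 and 0.257), and without WGP replicate 1 or WGP replicate 2 limma called 0 genes of this list in either direction. For comparison, 13 of 25 GTPases of the Arf, Arl and Sar family, the other small GTPases of membrane traffic, rose and 1 fell (52.0% and 4.0%), with a median change of 0.38, beside 27.3% and 22.7% and -0.0091 for the Rab genes. Arl8b (1.42 ± 0.094, SE, adjusted p = 0.00252) and Arl8a (1.18 ± 0.096, SE, adjusted p = 0.00349), which link lysosomes to motors, and Arl5c (1.22 ± 0.13, SE, adjusted p = 0.00579) rose, and Arl15 fell (-1.16 ± 0.10, SE, adjusted p = 0.00397, with a change of -0.75 under normexp). The difference between the families was not tested, and the number of Arf-family genes called higher was 4, 6, 7 or 4 without WGP replicate 1, WGP replicate 2, medium replicate 1 or medium replicate 2.

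**Figure D5:**
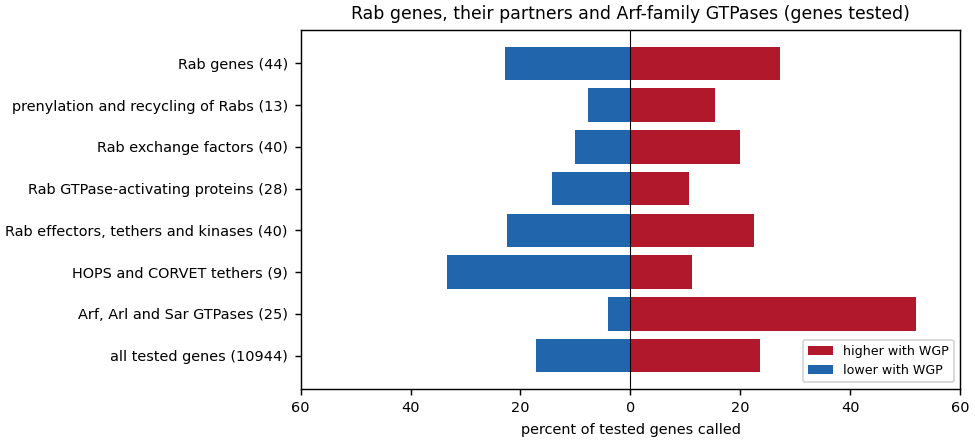
Percent of tested genes called higher (red, to the right) or lower (blue, to the left) with WGP in the Rab genes, in lists of their partners, in the Arf, Arl and Sar GTPases and in all tested genes, with the number tested in parentheses. The Rab genes (27.3% and 22.7%) lie near all tested genes (23.6% and 17.1%), and the Arf family has 52.0% and 4.0%.

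Promoter windows were found for 38 of the 44 tested Rab genes, and 60 windows of 48 Rab genes were set beside all 32851 windows of the RefSeq table. Only 48 of the 60 windows belong to tested Rab genes, so the 60 and the windows of tested genes are unlike sets. The searched letters, on both strands, were GGACTTTCC and GGAATTTCC (NF-kappaB sites), TGACTCA (AP-1), TGACGTCA, CACGTG, TCACGTGA (which contains CACGTG) and ACGTGC (a hypoxia response core). NF-kappaB letters of the first form were in 0 of 60 Rab windows, beside 0.436% of tested genes' windows and 0.344% of all, and those of the second form in 1 (Rab34), beside 0.365% and 0.317%. CACGTG was in 6 Rab windows (10.0%), beside 10.1% of the 11235 windows of tested genes and 7.15% of all windows. TCACGTGA was in 3 Rab windows (5.0%), those of Rab5a, Rab21 and Rab24, beside 1.88% of the windows of tested genes and 0.974% of all. AP-1 letters were in 3 Rab windows (5.0%), beside 4.06% of tested genes' windows and 5.20% of all. TGACGTCA was in 2 (3.33%), beside 2.97% and 1.79%, and ACGTGC in 3 (5.0%), beside 7.74% and 5.91%. Of the 11 windows of genes called higher, those of Rab20 and Rab5a held CACGTG, as did that of Rab24 among the 9 windows of genes called lower. Among the 28 windows of tested Rab genes not called, that of Rab21 held CACGTG.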

How the data were processed

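Total RNA of the macrophages was labelled with Cy3 and hybridised to Agilent 1-colour arrays, per the labels' protocols. The submitters' processing notes name Agilent Feature Extraction, version 10.7.3. Per the file headers, the deposited processed signal is a spot intensity after background subtraction and detrending, without normalization between arrays. The authors also deposited a table of log2 values, centred per probe to an unknown baseline, whose column medians were 0.0997, 0.130 and 0.100 (WGP replicates 1 to 3) and -0.0145, 0.164 and 0.103 (medium). After centring it correlated at 0.99999 with the levels used here over 39394 probes, and it served as an alternative. The flags per spot (other values) are the authors' deposited ones.

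The processed signal of WGP replicate 3 was 1.3 times that of replicate 1 to within 0.488%, and that of medium replicate 3 the mean of replicates 1 and 2 to within 0.695%. The first was averaged with replicate 1 and the second left out. Outlier spots (118 to 183 per array) were left out, no spot was saturated, and log2 signals minus the 75th percentile were averaged over a probe's spots. Of 39429 probes, 26755 (67.86%) were named through RefSeq accessions. The brightest kept probe stood for a gene, and in 2 of 12 Rab genes with several kept probes (Rab5b and Rab8a) another had the opposite sign. WGP and medium arrays were fitted in R 4.3.3 by limma 3.58.1 (lmFit, then eBayes, with 2 residual degrees of freedom and 2.16 prior), and the adjusted p is Benjamini-Hochberg over 10944 genes. The test was checked on simulated arrays. The files hold no mean signal, so normexp (offset 50) used median signals, an alternative chosen after seeing the files. Members called with at least 1.5-fold are given on every array, and 4 called genes at most are named per list. The number of arrays limits the precision. The members and gene lists were chosen with earlier results of these data known.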

Additional observations from a re-analysis of the deposited data

How the results depend on the processing

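Over 14 other settings, 228 of 308 values of the 22 called Rab genes kept direction and call, 80 kept direction but lost the call, and none reversed. Of 306 values of the genes not called, 29 passed the test. Of these, 12 came with every deposited file as its own sample and 4 with medium replicate 3 averaged with replicate 1, which count hybridizations again. All 14 settings reuse the same arrays and are not independent checks. The authors' table, which holds nearly the same values, kept the result of all 44 tested Rab genes. Both settings that used medium replicate 3 counted hybridizations again, and no called Rab gene lost its call in them. The count of all genes called (4454) was 1564 with no filter on dim probes, 7454 with every deposited file as its own sample, which counts hybridizations again, and 2079 to 3323 without 1 array. Rab genes called higher (12) numbered 3 with no filter, 19 with every file as its own sample and 4 to 8 without 1 array. Rab genes called lower (10) numbered 3 with no filter, 6 with median scaling and 5 to 8 without 1 array. With no filter 20270 genes entered the adjustment, against 10944. The median Rab change (-0.0091) was 0.15 with median scaling and -0.047 to 0.096 without 1 array. Median scaling moved the median of all genes to 0.19, against 0.036, and the share of higher genes among all called to 72.6%, against 57.9%; among called Rab genes the share was 68.4% (13 of 19), against 54.5%, and 42.1% with quantile normalization. The replicate block (slide) called 4141 genes, with 8 Rab genes higher and 9 lower; its loss of Rab7, Rab7b, Rab18, Rab22a and Rab31 is given in the report. Deviations of the arrays of a slide from their group means correlated at 0.14 across genes, over 2 pairs. Normexp shrinks the changes of dim genes by its offset, and with it Rab genes called were 8 higher and 9 lower. Brighter genes also differed with normexp: the change of Rab5c was 0.076, against 0.31, while that of Rab11b was -0.47, against -0.32. The cause of these differences was not tested. Counts for the partner lists moved by over 1.5 times in several settings: with no filter the lists called 2 and 2 exchange factors, 1 and 2 GTPase-activating proteins, 4 and 1 effectors, and 3 Arf-family genes higher. Where no cause is named, the cause was not tested. Signal over background limits the 13 members without a kept probe.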
